A study of Mus musculus with 1989 samples.

Results

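The regions described here are the scATAC-seq peaks that were open more often in both single-positive (SP) sorts of mouse thymocytes than in the double-positive (DP) and double-negative (DN) sorts. A peak was selected where it was open in 5 or more CD4 sorted cells and 5 or more CD8 sorted cells, and where the share of open cells in CD4 and in CD8 was each at least 1.5 times the share in DP and in DN. A peak was called open in a cell with a count above 0, and only cells with a total of 1000 or more counts were used. The rule selected 2453 peaks of 18566 that were open often enough in CD4 and CD8 to be tested by it, out of 138317 peaks in all, each 4000 bp wide. The selected share was thus 13.2% of the tested peaks. Because the sort shares chose the peaks, those shares are given as a description and nothing is read from their size. With the rule turned round, 1760 of 22685 peaks open in 5 or more DP and 5 or more DN cells were more open in both of those sorts, which is 7.76%.

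The thymocytes came from mice that the labels give as male and 7 weeks old and the study's methods as C57BL/6, with no treatment or altered allele named. Cells were sorted as CD4, CD8, DP or DN, or were taken as total thymocytes onto numbered plates, and no cell carries the name of an animal. Each sort therefore counted as 1 sample, no test between sorts was run, and intervals are exact binomial 95% intervals that cover counting error only. The cells used were 96 CD4, 91 CD8, 116 DP, 175 DN and 1075 total thymocytes. Their median totals were 5308 counts in CD4, slightly fewer in CD8, 3959 in DP, 3657 in DN and 5805 in total thymocytes. By median total the SP sorts were thus deeper than DP and DN, and depth bears on every open share below. The pooled counts were 545331 in CD4, 486460 in CD8, 471528 in DP and 1104188 in DN, so by mean total DN was not the shallower. For the peaks given by their coordinates, the open cells are also given with each cell thinned to 1000 counts. The label numbers run in series, of which the 4000 and 31000 series hold cells of all 4 sorts, and the labels do not say what a series is.

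A thymocyte passes from the DN stage, which lacks both coreceptors, to the DP stage, which carries CD4 and CD8 and rearranges the T cell receptor alpha locus with the Rag proteins. Cells whose receptor binds a self peptide on MHC are signalled to survive, commit to the CD4 or CD8 lineage, and then acquire the receptors with which a mature cell leaves the thymus. Accessible chromatin marks promoters and enhancers that can bind transcription factors, and scATAC-seq cuts such chromatin with a transposase in single nuclei.

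The labels of the sorts were set against peaks at defining genes. Peaks nearest to Rag1 and Rag2 held 0 of 545331 counts in CD4 cells, which allows up to 0.0550 per 10000 counts by the limit of 3 counts of the total that is used here for every 0, against 63 of 486460 in CD8, 160 of 471528 in DP and 92 of 1104188 in DN. Peaks nearest to Cd8a and Cd8b1 held 2.95 per 10000 counts in CD4, 9.50 in CD8, 15.2 in DP and 3.43 in DN. Peaks nearest to 12 DP genes held 11.8 per 10000 counts in CD4, 19.9 in CD8, 33.6 in DP and 18.4 in DN. The CD8 sort thus lay between CD4 and DP at these loci. Peaks nearest to 12 DN genes held 20.7 per 10000 counts in DN and 10.8 to 12.9 in the other 3 sorts. Those nearest to Il2ra, whose protein CD25 marks part of the DN cells, went against this, with 2.14 in DN, the lowest, against 2.62 in CD4, 2.86 in CD8 and 3.65 in DP. Peaks nearest to Cd4 held 1.93 in CD4, 1.42 in CD8, 2.08 in DP and 1.04 in DN, so CD4 and DP were the higher pair. Peaks nearest to 12 genes of antigen-presenting and B cells held 5.57 in CD4, 4.89 in DN, 3.25 in CD8 and 2.59 in DP, and the part of such cells in the values below was not tested.

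The sequence at the centre of 6 selected peaks is shown because these are among the peaks with the widest gap between the sorts, or the widest of a gene of survival, cytokine response, egress or early T cell identity. These genes were chosen with their values known. Each run gives the 300 bases around the peak centre on the plus strand of GRCm38, read from the RefSeq assembly. Capitals mark matches, on either strand, to the 16 groups of short motifs described further on.
Nr4a3 chr4:48074860-48075159: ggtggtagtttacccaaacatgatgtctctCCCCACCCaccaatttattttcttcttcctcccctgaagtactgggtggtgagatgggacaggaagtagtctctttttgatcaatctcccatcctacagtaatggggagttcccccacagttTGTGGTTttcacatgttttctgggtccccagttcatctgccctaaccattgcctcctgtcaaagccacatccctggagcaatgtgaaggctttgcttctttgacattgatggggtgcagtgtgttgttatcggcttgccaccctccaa
S1pr1 chr3:115682735-115683034: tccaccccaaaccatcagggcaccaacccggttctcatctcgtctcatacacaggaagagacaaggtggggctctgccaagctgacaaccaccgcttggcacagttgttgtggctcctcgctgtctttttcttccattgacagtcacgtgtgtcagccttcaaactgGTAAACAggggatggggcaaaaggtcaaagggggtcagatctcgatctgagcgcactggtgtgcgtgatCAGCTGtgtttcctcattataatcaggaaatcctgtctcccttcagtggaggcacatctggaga
Bcl2 chr1:106600770-106601069: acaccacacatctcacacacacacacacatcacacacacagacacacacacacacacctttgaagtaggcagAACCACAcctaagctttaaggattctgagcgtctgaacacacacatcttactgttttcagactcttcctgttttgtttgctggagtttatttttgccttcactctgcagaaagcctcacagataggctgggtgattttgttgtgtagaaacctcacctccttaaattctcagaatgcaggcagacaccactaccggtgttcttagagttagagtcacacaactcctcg
Tcf7 chr11:52265612-52265911: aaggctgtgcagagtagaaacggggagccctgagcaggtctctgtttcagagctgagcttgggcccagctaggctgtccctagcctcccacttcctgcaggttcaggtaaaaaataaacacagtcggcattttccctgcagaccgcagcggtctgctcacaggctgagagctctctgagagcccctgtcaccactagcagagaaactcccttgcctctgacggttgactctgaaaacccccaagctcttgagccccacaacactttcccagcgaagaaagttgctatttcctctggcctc
Il7r chr15:9574913-9575212: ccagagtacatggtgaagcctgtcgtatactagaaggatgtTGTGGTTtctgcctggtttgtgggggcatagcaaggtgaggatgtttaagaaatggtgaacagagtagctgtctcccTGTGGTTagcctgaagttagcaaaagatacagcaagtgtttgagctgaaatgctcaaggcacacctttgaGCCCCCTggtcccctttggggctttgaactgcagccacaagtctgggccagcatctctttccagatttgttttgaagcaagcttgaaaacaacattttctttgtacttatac
Ccr7 chr11:99168071-99168370: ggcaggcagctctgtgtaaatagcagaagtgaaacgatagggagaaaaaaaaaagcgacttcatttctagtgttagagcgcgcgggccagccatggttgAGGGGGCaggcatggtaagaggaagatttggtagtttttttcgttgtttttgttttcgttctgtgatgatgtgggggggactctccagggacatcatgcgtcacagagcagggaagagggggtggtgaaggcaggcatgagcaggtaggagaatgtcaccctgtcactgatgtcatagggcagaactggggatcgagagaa
The run near Nr4a3 holds the Runx letters TGTGGTT and the Klf letters CCCCACCC. The run near Il7r holds TGTGGTT at 2 places, and the run near Bcl2 holds the same letters on the minus strand, read as AACCACA. In the run near S1pr1 the capitals are the Foxo letters on the minus strand, read as GTAAACA, and the E box CAGCTG. The Ctcf letters stand in the runs near Ccr7 and Il7r, and the run near Tcf7 holds none of the motifs. A match is a description of the letters and is not evidence that a factor binds there.

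The widest gap was at chr4:48073010-48077009, in an intron of Nr4a3, which encodes a nuclear receptor induced by T cell receptor signals. It was open in 30 of 96 CD4 cells (31.25%, interval 22.2 to 41.5%), 27 of 91 CD8 cells (29.7%, 20.6 to 40.2%), 3 of 116 DP cells (2.59%, 0.537 to 7.37%) and 15 of 175 DN cells (8.57%, 4.88 to 13.7%). In total thymocytes, which the rule did not use, it was open in 21 of 1075 cells (1.95%, 1.21 to 2.97%). At 1000 counts per cell it was open in 4 CD4, 5 CD8, 0 DP and 1 DN cells, and the 0 of 116 DP cells allows a share of up to 2.59% by the same limit of 3. The open cells were uneven between label series: 28 of 55 CD4 cells of the 4000 series were open against 2 of 41 of the 31000 series, whose median totals were 7217 and 1543 counts. In CD8 the values were 25 of 77 and 2 of 14 cells, with median totals of 5774 and 1519 counts. In the same 4000 and 31000 series DP had 1 of 63 and 1 of 22 cells open, and DN had 4 of 30 and 0 of 23. Depth and label series thus moved with the open share of this peak in CD4 and CD8, and their part in it was not tested.

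The peak at chr3:115680885-115684884 lies between genes, 32187 bp downstream of the start of S1pr1, the sphingosine phosphate receptor with which SP cells leave the thymus. It was open in 31.25% of CD4, 29.7% of CD8, 7.76% of DP and 12.6% of DN cells, and in 7.53% of total thymocytes. After thinning, 6 CD4, 4 CD8, 3 DP and 6 DN cells were open. For this peak the counts by series were 25 of 55 and 5 of 41 in CD4, and 25 of 77 and 2 of 14 in CD8, in the 4000 and 31000 series. In DP they were 7 of 63 and 1 of 22. In DN cells they ran from 0 of 30 in the 4000 series to 7 of 32 in both the 1000 and 2000 series, so the DN series did not behave as one. In the 31000 series 4 of 23 DN cells were open (17.4%), above the 12.2% of CD4 and 14.3% of CD8 cells.

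The 10 peaks with the widest gap also included those near Fam3c, Extl3, Dolpp1, Tmsb10, Cstad, Klf13 and Il6st. The peak at chr6:72952962-72956961 lies 3340 bp from the start of Tmsb10, which encodes an actin-binding thymosin, and was open in 34.4% of CD4, 34.1% of CD8, 6.90% of DP and 18.3% of DN cells. Thinned, the shares were 5.21%, 9.89%, 3.45% and 3.43%, so the DN share was above the DP share only before thinning. The peak near Klf13, a zinc finger factor gene, was open in 31.25%, 22.0%, 6.03% and 6.86% of CD4, CD8, DP and DN cells, and thinned in 8.33%, 5.49%, 1.72% and 0.571%. The peak near Il6st, which encodes the shared signalling chain of the interleukin 6 receptor family, was open in 28.1%, 22.0%, 4.31% and 6.86%. Without thinning, the peak at the start of Dolpp1 was the exception among the 10 in total thymocytes, where it was open in 51.3% of cells, above the 50% of CD4 and 46.2% of CD8 cells. At 1000 counts per cell it was open in 11.8% of total thymocytes, between the 11.5% of CD4 and the 12.1% of CD8 cells, and the peak near Il6st was open in 1.86%, above the 1.10% of CD8 cells. At 1000 counts per cell, 9 of the 10 peaks were still open in larger shares of CD4 and of CD8 cells than of DP and of DN cells, the exception being the one near Il6st with 3 CD4, 1 CD8, 3 DP and 3 DN cells open. The margins were narrow at this depth, as near Extl3 with 4.17% of CD4 and 4.00% of DN cells. Unthinned, in the 31000 series both SP shares were above DP and DN near Nr4a3, Fam3c and Klf13. They were not so near S1pr1, Extl3, Dolpp1, Tmsb10, Cstad and Il6st, as near Cstad with 2 of 41 CD4, 0 of 14 CD8 and 4 of 23 DN cells. In the 4000 series they were so near each of these named peaks but Dolpp1, with 53.2% of CD8 and 56.7% of DN cells.

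**Figure D1:**
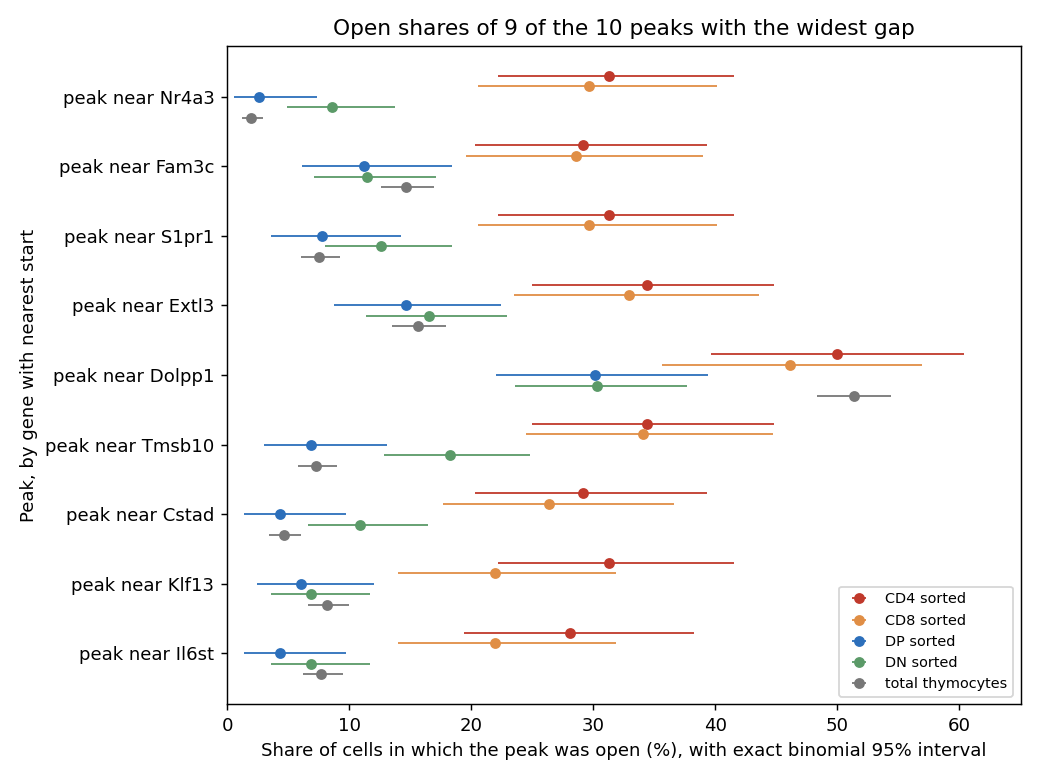
Share of cells in which each of 9 of the 10 selected peaks with the widest gap was open (x axis, percent), by sort and in total thymocytes, with exact binomial 95% intervals as bars. The peak near Dolpp1 is open in 51.3% of total thymocytes, while the one near Nr4a3 is open in 1.95% of them and in 31.25% of CD4 cells.

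Most selected peaks were open in few cells. The median share of open cells was 9.38% in CD4, 8.79% in CD8, 2.59% in DP and 3.43% in DN. In 1754 of the 2453 peaks the CD4 or the CD8 sort had fewer than 10 open cells, and in 74 both had 20 or more. No open DP cell was found for 335 peaks, no open DN cell for 35 and neither for 17, where the limit of 3 cells allows a share of up to 2.59% of DP and 1.71% of DN cells. The DN share was above the DP share in 1710 of the peaks (69.7%) and below it in 726. Over all tested peaks it was above in 73.3%, with medians of 10.3% in DN and 7.76% in DP, so this order was general. The smallest of the 4 ratios had a median of 1.92 and was 2 or more in 1176 peaks and 3 or more in 492.

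At the threshold, the peaks with the most open cells just inside were near Dhx38 (36.5% of CD4, 35.2% of CD8, 23.3% of DP and 23.4% of DN cells), Pde3b (30.2%, 35.2%, 18.1% and 20.0%) and Cd28 (34.4%, 28.6%, 12.1% and 18.9%). Those just outside were near Ppp1r16b (47.9%, 46.2%, 30.2% and 30.9%), Gpr132 (50%, 37.4%, 18.1% and 25.1%) and Itpk1 (32.3%, 26.4%, 4.31% and 17.7%). Peaks on either side of the threshold thus had like shares, and the edge of the set is a convention.

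The same cells were also read by counts and at equal depth. Since these cells chose the peaks, the values describe the set and are no independent evidence for it. Of the 2453 peaks, 2367 (96.5%) held a larger share of the counts in CD4 and in CD8 than in DP and in DN, and 1843 (75.1%) did so by 1.5 times. Over all tested peaks these shares were 31.3% and 12.7%. With cells thinned to 1000 counts, 1284 peaks (52.3%) kept larger open shares in both SP sorts, and 21.8% of the tested peaks had them. By 1.5 times, 906 (36.9%) did so, against 11.2% of the tested peaks. At this depth a CD4 cell had a median of 58 selected peaks open, a CD8 cell 58, a DP cell 19, a DN cell 19 and a total thymocyte 17. The other tested peaks were open in like numbers in CD4, CD8 and DP, with medians of 494, 494 and 487, and in 461 in DN and 536 in total thymocytes.

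Together the selected peaks held 6.01% of all counts in CD4 cells, 5.58% in CD8, 2.06% in DP and 2.02% in DN. Cells within a sort were not alike. In CD4 cells the share ran from 3.80% at the 5th percentile to 7.91% at the 95th, with a median of 6.07%. In CD8 cells it was spread over a wide range with a thin middle: 32 of 91 cells lay from 3 to below 4.5%, 9 from 4.5 to below 5.5%, 18 from 5.5 to below 7% and 32 at 7% or more. Both ends were found in each label series, with 29 of 77 cells of the 4000 series and 3 of 14 of the 31000 series from 3 to below 4.5%, and 41 and 9 at 5.5% or more. In DP, 66 of 116 cells were below 2% and 44 from 2 to below 3%, and the highest was at 8.44%. In DN, 31 of 175 cells lay from 3 to below 4.5%, and the highest was at 6.92%.

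Total thymocytes were not used by the rule. The selected peaks held 1.79% of their counts (interval 1.78 to 1.80%, counting error only, with reads in overlapping peaks counted more than once), and 1.61% with 1 peak kept per run of overlapping peaks. The median cell was at 1.72%, and the plate medians ran from 1.53 to 1.84% over 36 plates. Of the 1075 cells, 21 reached 3% and 2 reached the 5th percentile of the CD4 sort, and the highest was at 4.21%. In comparison, 83 CD4 cells, 65 CD8 cells, 3 DP cells and 3 DN cells lay above that highest total thymocyte. Peak by peak, the share of open total thymocytes was below both SP shares in 2306 of the selected peaks (94.0%; 47.1% of the tested peaks), which the choice of peaks by their SP shares favours, and at or below the higher of the DP and DN shares in 1701.

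**Figure D2:**
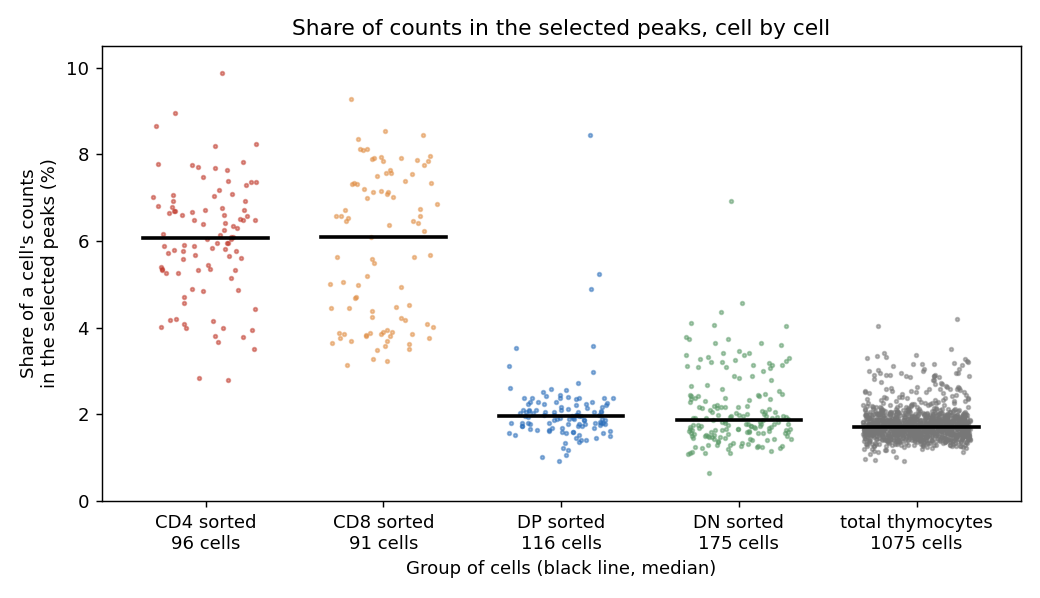
Share of each cell's counts that fell in the selected peaks (y axis, percent), 1 point per cell and a black line at the median, for the 4 sorts and total thymocytes. Medians are 6.07% in CD4 and 1.72% in total thymocytes, and CD8 cells gather above and below a thin middle.

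To measure peaks in cells that did not choose them, the rule was applied to the 4000 series alone, a choice made after seeing the data. It selected 2943 of 16277 tested peaks, 1436 of them shared with the 2453. In the cells that chose them these peaks held 8.22% of the counts in CD4, 7.76% in CD8, 3.31% in DP and 2.23% in DN. In the 31000 series, which was not used, they held 5.38% in CD4 and 5.55% in CD8, against 3.63% in DP and 4.35% in DN. The remaining unused series gave 4.21% in DP and 4.29 to 4.64% in DN, and total thymocytes gave 3.85%. The SP sorts of the unused series were thus above all unused DP and DN series, by a smaller margin than in the series that chose the peaks. The 31000 cells of the 4 sorts had median totals of 1263 to 1585.5 counts, but the highest ranged from 6726 in CD8 to 16672 in DN, and deep cells weigh more in a share of pooled counts. The other unused DP and DN series had median totals of 2159.5 to 10982.5 counts, so depth was not matched there. The 31000 comparison has 41 CD4, 14 CD8, 22 DP and 23 DN cells and no replicate.

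**Figure D3:**
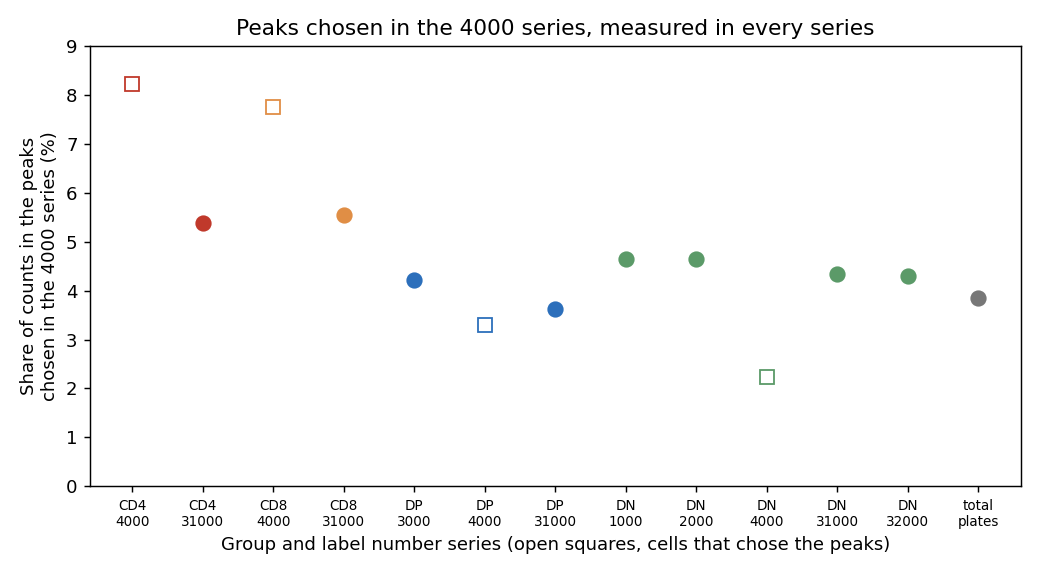
Share of counts in the 2943 peaks chosen in the 4000 series (y axis, percent) for each sort and label series. Open squares are the cells that chose the peaks, and filled circles are cells that did not, of which CD4 and CD8 stand at 5.38% and 5.55%.

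Selected peaks took the name of the closest protein-coding gene, by distance to its transcription start, which gave 1590 genes. Over all genes, 17.9% of the 8880 genes nearest to a tested peak had a selected peak. Among 25 genes of SP maturation and egress, all with a tested peak, 16 had a selected peak, and 63 of their 187 tested peaks were selected (33.7%, against 13.2% of all tested peaks). For this gene list and those below, peaks were not matched with all tested peaks for distance to a start. Of selected peaks 23.8% lay within 2 kb of a start, against 59.9% of the other tested peaks. Ccr7, the chemokine receptor that draws SP cells into the thymic medulla, had 6 selected peaks of 10 tested. The widest of them, chr11:99166221-99170220, lies between genes 13144 bp upstream of the start and was open in 16 CD4, 13 CD8, 4 DP and 5 DN cells (16.7%, 14.3%, 3.45% and 2.86%) and in 9 of 1075 total thymocytes (0.837%). Its level in total thymocytes was below that of all 4 sorts, and thinned it was open in 6 CD4, 3 CD8, 1 DP and 2 DN cells.

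S1pr1 had 6 selected peaks of 8 tested, at 4 separate places, from 85850 bp upstream of its start to 32187 bp downstream. Of these, 2 overlap at the start. The one centred 42 bp from it, chr3:115713030-115717029, was open in 8.33% of CD4, 14.3% of CD8, 1.72% of DP and 2.86% of DN cells, and thinned in 3 CD4, 4 CD8, 0 DP and 1 DN cells. The one centred 930 bp from it, chr3:115712142-115716141, was open in 9.38% of CD4, 7.69% of CD8, 1.72% of DP and 1.71% of DN cells and in 0.186% of total thymocytes. Thinned, it was open in 3 CD4, 0 CD8, 0 DP and 1 DN cells, so CD8 was above DN at equal depth in the first of the pair only. Il7r, the receptor chain for the survival cytokine interleukin 7, had 5 of 8, all upstream, and the widest lies 45228 bp upstream at chr15:9573063-9577062. That peak was open in 31 CD4 cells (32.3%), 17 CD8 cells (18.7%), 4 DP cells (3.45%) and 13 DN cells (7.43%), with CD4 above CD8. Thinned, it was open in 5 CD4, 3 CD8, 1 DP and 1 DN cells. Of the further Il7r peaks, 2 lie in an intron of Spef2. Cd2, an adhesion receptor gene, had 4 of 9, and Rgs10, a regulator of G protein signalling, had 5 of 8. Foxo1 and Foxp1, forkhead factors of quiescence and maturation, had 6 of 16 and 15 of 30. Klf2, whose factor controls S1pr1, had 2 of 7, Slfn2 had 3 of 9 and Ms4a6b had 2 of 2. Cxcr4 and Ccr9, chemokine receptors of immature thymocytes, had 1 of 16 and 1 of 8. Low counts were not particular to them, as Shisa5, Klf3 and Ifngr1 had 1 of 6, 1 of 10 and 1 of 11.

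Among 28 genes of T cell receptor signalling and selection, 16 of the 27 with a tested peak had a selected peak, and 47 of 194 tested peaks were selected (24.2%). Bcl2, which encodes a protein that blocks cell death, had 2 of 6, both in its long intron. The wider, chr1:106598920-106602919, was open in 26 CD4, 19 CD8, 4 DP and 13 DN cells (27.1%, 20.9%, 3.45% and 7.43%) and in 2.33% of total thymocytes. Thinned, it was open in 2 CD4, 5 CD8, 1 DP and 5 DN cells, and the CD4 share of 2.08% was then below the DN share of 2.86%. Cd28, the costimulatory receptor gene, had 7 of 14, among them chr1:60779874-60783873 with 19.8% of CD4, 19.8% of CD8, 6.90% of DP and 6.29% of DN cells. Thinned, that peak was open in 2 CD4, 3 CD8, 3 DP and 1 DN cells, with CD4 at 2.08% below DP at 2.59%. Tnfaip3, an inhibitor of NF-kB signalling, had 7 of 18, and the one at chr10:19115195-19119194, 101538 bp upstream, was open in 14 CD4, 6 CD8, 1 DP and 1 DN cells, of which thinning left 1 CD4 cell. The kinase gene Prkcq had 7 of 18, and Ptprc, the CD45 phosphatase gene, had 5 of 14. Cd5, Cd6 and Nfkb1 had 2 of 7, 1 of 3 and 3 of 7. Nr4a3, Lck, Themis, Cd3d and Cd53 had 1 of 5, 1 of 5, 1 of 2, 1 of 5 and 1 of 4. Bcl2l11 and Cd247 had 1 of 11 and 1 of 13.

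Among 26 lineage factor genes, 14 of the 23 with a tested peak had a selected peak, and 73 of 226 tested peaks were selected (32.3%). They were concentrated at Satb1, a chromatin organiser gene, with 23 of 38 at 14 separate places, and Ets1, an Ets factor gene, with 21 of 46 at 9 places. The Satb1 peaks reached as far as 335354 bp upstream, where chr17:52166644-52170643 was open in 20.8% of CD4, 19.8% of CD8, 5.17% of DP and 8.00% of DN cells, and thinned in 4.17%, 3.30%, 1.72% and 1.14%. Tcf7, whose factor is needed from the earliest T cell stages, had 6 of 19, and its widest peak, chr11:52263762-52267761 in an intron, was open in 28.1% of CD4, 19.8% of CD8, 4.31% of DP and 7.43% of DN cells. After thinning, 5 CD4, 8 CD8, 0 DP and 1 DN cells were open. A selected peak of Tcf7 at chr11:52275213-52279212 went the other way in total thymocytes, with 166 of 1075 cells open (15.4%) against 6.25% of CD4 and 6.59% of CD8 cells. Thinned, the values were 4.28% of total thymocytes, 1.04% of CD4 and 1.10% of CD8 cells.

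The lineage-defining genes each had a few selected peaks. Zbtb7b, whose factor ThPOK directs the CD4 lineage, had 2 of 2, open in 9.38% of CD4 and 7.69% of CD8 cells at both, against 0.862% and 1.72% of DP and 4.00% and 3.43% of DN cells. Thinned, each was open in 2 CD4 cells and in 2 or fewer cells of the other sorts. Over all peaks nearest to Zbtb7b, CD8 held the fewest counts, with 1.76 per 10000 in CD4, 0.411 in CD8, 0.530 in DP and 0.788 in DN. Runx3, the factor of the CD8 lineage, had 1 of 5, an intronic peak open in 10.4% of CD4, 6.59% of CD8, 0 DP and 2.29% of DN cells, of which thinning left 1 CD8 and 1 DN cell. Over all peaks nearest to Runx3, DN held the most counts, with 4.80 per 10000 against 3.58 in CD4, 4.48 in CD8 and 2.78 in DP. At the Cd4 gene, chr6:124884152-124888151 is centred in an intron 2069 bp from the start and was open in 26.0% of CD4, 27.5% of CD8, 13.8% of DP and 14.3% of DN cells. Thinned, the shares were 5.21%, 1.10%, 5.17% and 6.29%, so the SP sorts no longer stood above DP and DN and CD8 was the lowest. Gata3, Runx1, Lef1, Tox and Ikzf1 had 3 of 12, 4 of 14, 2 of 19, 2 of 8 and 5 of 14.

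Smaller lists were read by their counts alone. Of 8 Gimap genes, GTPases of lymphocyte survival that lie side by side on chromosome 6, 5 had a selected peak, 10 of 30 tested peaks in all. At Gimap8, chr6:48645185-48649184 at the start was open in 16.7% of CD4, 18.7% of CD8, 6.90% of DP and 7.43% of DN cells, yet in 151 of 1075 total thymocytes. Thinning left 1 CD4, 3 CD8, 1 DP and 1 DN cells open. Of 9 genes of MHC class I and antigen processing with a tested peak, B2m, H2-T22, Psmb9 and Nlrc5 had one. Of 8 innate-like and cytotoxic genes with a tested peak, Klrd1, Id2 and Il2rb did, with 3 of 25 tested peaks (12.0%), near the share of all tested peaks. The start of Klrd1, which encodes a receptor chain of natural killer and CD8 cells, was open in 6.25% of CD4, 13.2% of CD8, 0 DP and 2.86% of DN cells, and thinned in 1 CD4, 5 CD8, 0 DP and 1 DN cells. Of the 9 DP genes with a tested peak, which include genes of receptor rearrangement, 0 had a selected peak among 18 tested peaks, and of the 7 DN genes 1 did, Kit. Of 3 antigen-presenting and B cell genes with a tested peak, Cd79b had one. The lists were chosen with earlier results of these data known, so their counts are not independent evidence.

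Some genes gathered many selected peaks. The 10 genes with the most at separate places were Satb1 (14), Bach2, Ets1 and Foxp1 (9 each), Prkch (8), Prkcq and Tgfbr2 (7 each), and Btg1, Foxo1 and Inpp4b (6 each). They also had many tested peaks, from 11 at Inpp4b to 46 at Ets1. Bach2, which encodes a repressor that keeps lymphocytes resting, had 11 selected peaks of 27 tested. Its peak at chr4:32361810-32365809 was open in 13.5% of CD4, 14.3% of CD8, 1.72% of DP and 7.43% of DN cells. Thinned, it was open in 0 CD4, 2 CD8, 0 DP and 3 DN cells, so the order was lost. Tgfbr2, the signalling receptor for TGF-beta, had 8 of 18, and the one at chr9:116187172-116191171, 13812 bp upstream, was open in 28.1% of CD4, 16.5% of CD8, 6.90% of DP and 8.57% of DN cells. Thinned, the shares were 4.17%, 2.20%, 2.59% and 1.14%, with CD8 below DP. Btg1, an antiproliferation gene, had 6 of 17, and chr10:96662229-96666228 was open in 12.5% of CD4, 16.5% of CD8, 0.862% of DP and 5.14% of DN cells. Its thinned values were 6 CD4, 7 CD8, 1 DP and 1 DN cells. Of the 1590 genes, 104 had 3 or more separate selected peaks and 1276 had 1.

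The CD4 and CD8 sorts differed at part of the selected peaks, which the rule allowed as long as both passed. The median ratio of the CD4 to the CD8 share was 1.05. The CD4 share was 1.5 times the CD8 share or more in 434 peaks, and the CD8 share was 1.5 times the CD4 share or more in 184. The remaining 1835 peaks were within 1.5 times. Peaks higher in CD4 included those near Tnfaip3 and Il7r above. A Gimap3 peak at chr6:48768897-48772896 was open in 17.7% of CD4 against 5.49% of CD8 cells, but thinned in 2 CD4 and 3 CD8 cells. A Foxp1 peak at chr6:99378335-99382334 was open in 11.5% of CD4 and 23.1% of CD8 cells, and thinned in 2 of each. Most of these ratios rest on few open cells, and differences between CD4 and CD8 were not tested.

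The selected peaks lay away from transcription starts more often than the other tested peaks. Their centres were within 2 kb of a start in 583 peaks (23.8%), in introns in 1022 (41.7%), between genes in 751 (30.6%) and in exons in 97 (3.95%). The 16113 other tested peaks were within 2 kb of a start in 59.9%, in introns in 19.4% and between genes in 19.1%. Over all 138317 peaks, which include those too rarely open to be tested, 27.9% were within 2 kb. The median distance to a start was 12437 bp for the selected peaks, 533 bp for the other tested peaks and 10109 bp for all peaks. The 400 bases around the centre had a median GC content of 47.75% in selected peaks and 56.0% in the others, and of 47.0% and 49.75% when peaks in exons or within 2 kb of a start were left out of both. Overlaps joined 655 of the selected peaks into runs of up to 8, which left 2092 separate places. By chromosome, the selected share of tested peaks ran from 10.3% on chromosome 7 to 16.9% on chromosome 6, apart from 0 of 10 on Y.

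Given these GC contents, motifs were compared among peaks in introns or between genes, 1773 selected and 6206 other tested. A motif counted where its letters stood on either strand within 200 bp of the centre. The E box letters CAGCTG and CAGGTG, which E proteins bind, stood in 39.9% of selected peaks and 54.7% of the others, the widest difference of the 16 groups. The Tcf/Lef letters CTTTGAT and CTTTGTT stood in 22.3% against 19.7%, AP-1 (TGACTCA and TGAGTCA) in 12.0% against 10.6%, Foxo (TGTTTAC) in 8.80% against 7.78%, and NF-kB (GGAATTTCC and GGGACTTTC) in 1.47% against 0.918%. Runx (TGTGGTT) stood in 21.8% against 22.5%, and Klf (CCACACCC and CCCCACCC) in 17.5% against 16.8%. The Ctcf letters AGGGGGC were less frequent in selected peaks, with 4.79% against 8.06%. The Ets letters CCGGAAG, centred on the core that this family of factors shares, stood in 4.51% of selected peaks against 6.48% of the others. The Egr letters GCGTGGG, for early growth response factors induced by receptor signals, stood in 2.99% against 4.06%. The letters of the orphan receptor ROR, TAGGTCA, stood in 3.38% of selected peaks against 3.88% of the others. For the Gata family, whose member Gata3 acts in CD4 lineage choice, the letters AGATAAG stood in 6.03% against 6.09%. Stat (TTCCTGGAA and TTCCAGGAA) stood in 1.52% against 1.26%, and E2f (TTTGGCGC and TTTCCCGC), Irf and Srf in under 1% of both. Within 500 bp of the centre the order turned for Runx, with 35.0% of selected peaks against 34.3% of the others, for Klf, with 30.1% against 30.8%, and for Gata, with 13.8% against 13.0%. It also turned for Irf and E2f, which stood in under 2% of both. It held for the E box, with 71.5% against 79.9%, and for the other groups.

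Within 2 kb of starts the E box stood in 41.5% of 583 selected and 39.5% of 9653 other peaks, so the order was turned there. Ets stood there in 9.95% against 21.3% and Ctcf in 11.0% against 19.1%, beside a median GC content of 52.0% against 61.75%. Over all 138317 peaks the E box stood in 49.5%, Tcf/Lef in 14.9%, Runx in 12.9%, AP-1 in 7.76% and Klf in 14.5%. The letters found say nothing of which factor is bound.

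**Figure D4:**
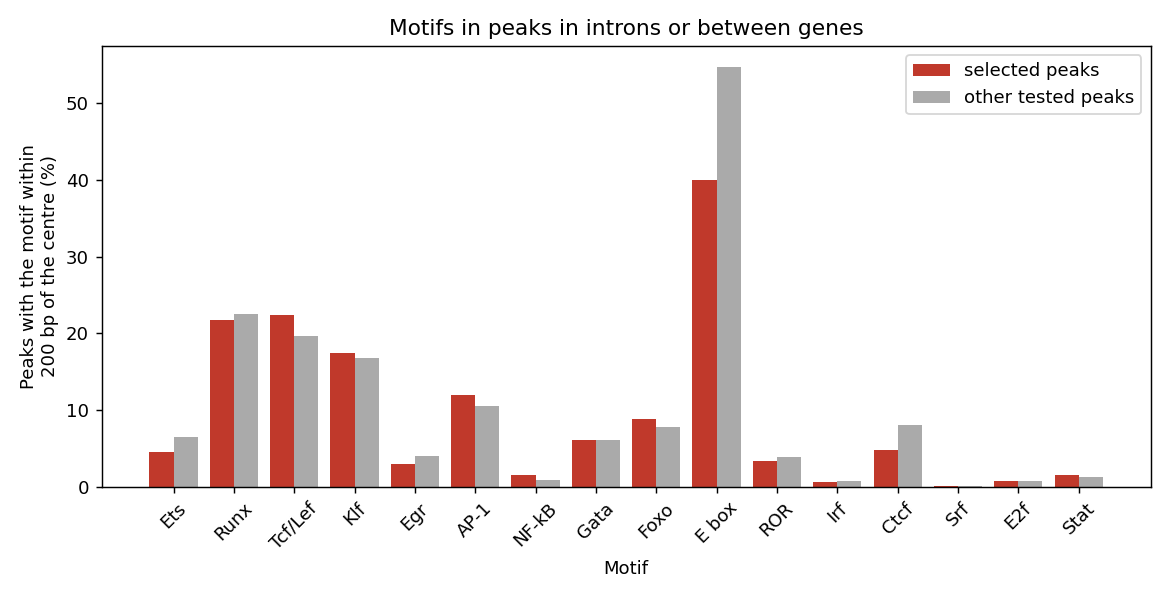
Share of peaks in introns or between genes with each motif within 200 bp of the centre (y axis, percent), for the 1773 selected peaks and the 6206 other tested peaks. The E box bars are at 39.9% and 54.7%, and the other 15 pairs lie closer together.

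RNA of the nearest genes was read in the scRNA-seq library, which the rule did not use. Its 1993 cells were clustered, and clusters were called CD4sp-like (148 cells), CD8sp-like (147), DPre-like (496, named for markers of DP cells that rearrange their receptor genes) and DN-like (78) from marker genes. Of the 3 clusters called DPre-like, 1 of 121 cells was led in part by genes of dividing cells (Hmgb1, Hmgb2, Hmgn2 and Cenpa) beside Ly6d and Dntt, and held Mki67, a gene of dividing cells, in 43.0% of its cells. Of the 1590 genes, 1063 were above 0 in at least 5% of cells of one of these classes, and 365 of them (34.3%) had a higher mean in both SP-like classes than in DPre-like and DN-like cells. Over the genes nearest to any tested peak the share was 20.7% of 5965. Without the cluster with Mki67, an alternative chosen after seeing the data, the shares were 33.6% of 1064 and 20.6% of 5962. Lower means in both SP-like classes were found for 203 (19.1%), against 23.9% over the genes of tested peaks. For selected peaks within 2 kb of a start the share higher in both was 37.2%, against 20.3% for tested peaks within 2 kb. It was 35.4% for selected peaks in introns or between genes and 41.7% for those open in 10 or more cells of both SP sorts. Among the 84 genes with 3 or more separate selected peaks it was 52.4%. Apart from the 2 kb subset, the share over tested peaks cut the same way was not computed. No rise of the share across these subsets is thus read. Most differences were small. By more than 0.25 on the log2 scale, 43 genes (4.05%) were higher in both, against 1.32% over the genes of tested peaks. Each difference was the lower SP-like mean minus the higher of the DPre-like and DN-like means. It was above 0 only for genes higher in both SP-like classes. Its median was -0.02 for genes of selected peaks and -0.03 for those of tested peaks. A median below 0 thus does not mean that most genes were lower in the SP-like classes.

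The RNA and the peaks ran together at some genes. Tmsb10 had mean log2 values of 5.86 ± 0.52 (SD over cells) in CD4sp-like, 5.95 ± 0.34 in CD8sp-like, 1.74 ± 1.22 in DPre-like and 2.46 ± 1.17 in DN-like cells. Cd2 had 1.71 ± 1.03, 1.62 ± 0.89, 0.33 ± 0.57 and 0.09 ± 0.28 in the same order. Rgs10 had means of 1.91, 1.63, 0.91 and 0.48, and Cd53, a tetraspanin gene, 1.34, 1.10, 0.05 and 0.41. Ccr7 had 0.83, 0.62, 0.02 and 0.01, and S1pr1 0.84, 0.34, 0.01 and 0.00, but both were among the markers that named the SP-like classes, as were Klf2, Zbtb7b, Runx3 and Cd40lg. In DPsel-like cells, which are DP cells under selection, Tmsb10 was at 5.46, Cd2, a marker of that class, at 1.87 and Rgs10 at 2.12, so their RNA was not particular to the SP-like classes. Bcl2 had 1.29, 1.48, 0.06 and 0.97, so its DN-like mean was 0.318 below the lower SP-like mean and above the DPre-like mean. All 5 Gimap genes with a selected peak, all 4 of MHC class I and antigen processing and all 3 innate-like ones had higher means in both, though Il2rb was above 0 in 2.03% of CD4sp-like cells, too few for a level. So did 10 of 16 of the SP maturation list, 8 of 15 of the receptor signalling list and 6 of 14 of the lineage list.

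At other genes RNA and peaks parted. Satb1, with the most selected peaks, had means of 2.37 in CD4sp-like and 2.39 in CD8sp-like against 3.34 in DPre-like and 1.62 in DN-like cells. Tcf7 had 1.42 and 1.35 against 2.58 and 1.58, and Klf13 had 0.92 and 0.99 against 1.31 and 0.56. Without the DPre-like cluster with Mki67, the DPre-like means were 3.50 for Satb1, 2.59 for Tcf7 and 1.45 for Klf13. For Nr4a3, with the widest gap, RNA was found in few cells, 2.03% of the CD4sp-like, 3.40% of the CD8sp-like and 0.202% of the DPre-like ones, which is too few for a level. Il7r had 0.40 and 0.26 in the SP-like classes, 0.00 in DPre-like and 0.29 in DN-like cells. It was among the markers that named the DN-like class, which favours its DN-like mean. Cd28 had 0.83, 0.75, 0.84 and 0.20, with 1.99 in DPsel-like cells. Dolpp1 and Cstad had no row in the RNA table used here.

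**Figure D5:**
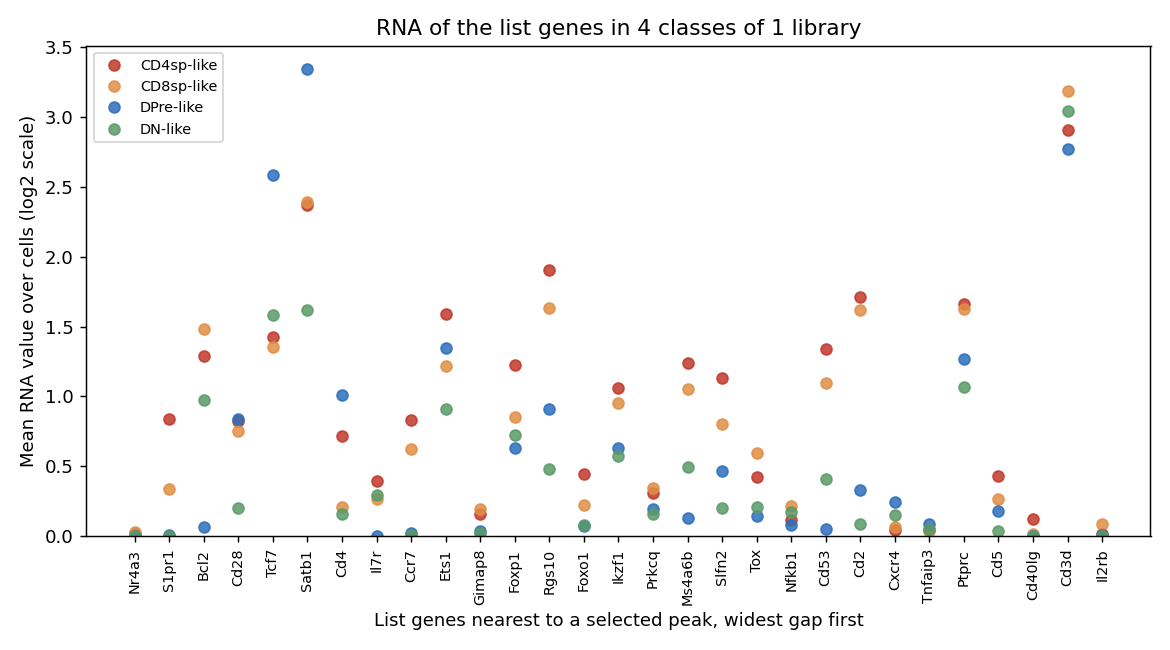
Mean RNA value over cells (y axis, log2 scale) of the list genes nearest to a selected peak, widest gap first, in 4 classes of cells of 1 library. Rgs10 and Cd2 have both SP-like points on top, whereas Satb1 and Tcf7 have the DPre-like point on top, at 3.34 and 2.58.

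Where the CD4 share of a peak was 1.5 times the CD8 share or more, 136 of 242 measured nearest genes (56.2%) had a higher mean in CD4sp-like than in CD8sp-like cells. The share was 57.4% of 115 genes where CD8 was higher and 50.2% of 875 genes within 1.5 times. The median of the CD4sp-like minus the CD8sp-like mean was 0.00347, 0.00718 and 0.000353 in the same order, so the means were nearly alike. The same share over the genes of all tested peaks was not computed. Nothing is thus read from these shares, and no test was run.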

How the data were processed

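Per the labels, scRNA-seq used a droplet kit, and the submitters' processing notes name Cell Ranger 1.3.1. Per the study's methods, the authors mapped scATAC-seq reads, called peaks on merged cells and quantile-normalized the RNA values. The deposited peak table holds whole-number counts, and the deposited RNA table holds log2 values. Peaks overlap, so a read may count in several. The processing notes name the builds GRCm38.p5 and hg38 without saying for which table, and the study's methods name GRCm38.p5 for the RNA. For the count table GRCm38 was taken: 27.9% of peak centres lay within 2 kb of a protein-coding start of GENCODE vM21, and 9.41% after a shift of 100000 bp. In all, 362 of 1988 columns were not used: total thymocytes with no plate number, and cells of no stated group. Cells with under 1000 counts were left out.

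The members and lists were chosen with earlier results of these data known. Peaks were named by rule: the 10 widest gaps between the lower SP share and the higher of the DP and DN shares, list genes (up to 30), the 10 genes with most members, and 3 peaks on each side of the threshold. Other names were chosen after their values were seen. Some genes that the rule names are not reported here. RNA was clustered with Seurat 5.3.0 (1306 variable genes, 20 components, 30 neighbors, resolution 2). Clusters were given the class whose markers had the highest mean z score, where its lead was 0.1 or more, and none with Mki67 in 50% of cells or more was called DPre-like, rules set after the clusters were seen. Doublets were not called. Python 3 scripts were tested on simulated data. Alternatives are given in the closing section.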

Additional observations from a re-analysis of the deposited data

How the results depend on the processing

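The number of peaks meeting the rule was 3786 at the lower ratio tried, 1176 at a ratio of 2, 699 with at least 10 open cells in CD4 and in CD8, 227 with each cell thinned to 1000 counts, 5 in the 31000 label series alone and 1023 with 1 peak per run of overlapping peaks, against 2453. The thinned and 31000 values come from 1499 and 72 testable peaks, and 58 of the 227 and 1 of the 5 were among the 2453. It was 2215 and 2217 for cells with 2000 or 500 counts or more, 2351 by the share of counts and 2943 in the 4000 series, with 1936, 2129, 1843 and 1436 peaks in common. The share of counts in total thymocytes was 1.61% with 1 peak per run. The share of nearest genes higher in both SP-like classes was 4.05% at a difference over 0.25, and 33.3 to 37.2% in the other settings. Any of the 16 motif groups stood in 81.2% of selected peaks, 96.7% within 500 bp, and in 83.0% and 97.6% of the other tested peaks.

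Total thymocytes with a plate number were already the only ones used, so that alternative and its opposite were not run, and at resolution 1 a single SP-like cluster gave no value. No paired analysis was possible because each sort is 1 sample. In its place, values within the 4000 and 31000 label series are given for shares of counts and for peaks among those with the widest gap. Sorts differ in depth and label series and have no replicate.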
